A study of Mus musculus with 12 samples.

Results

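The 9 genes described here encode members of the BCL2 protein family that decide between survival and death of a cell: Bcl2, Bcl2l1 and Mcl1 (pro-survival), Bcl2l11, Bbc3, Pmaip1 and Bid (BH3-only) and Bax and Bak1 (effectors). They were taken by symbol from a list of 9 names, all 9 had 1 row among the 12809 genes of the expression table, and all 9 were among the 11595 genes tested. CD4 and CD8 T cells sorted from lymph nodes (LN) were profiled by RNA sequencing in 12 libraries, 3 in each of 4 groups. Both B6 groups came from female C57BL/6 mice of 10 weeks, which carry unaltered coreceptor genes. Both FlipFlop groups came from female mice of 14 weeks in which the Cd8a gene loci encode CD4 and the Cd4 gene loci encode CD8 proteins, on both chromosomes. These ages are the labels', and the study's methods give a range for all mice that ends below that of the FlipFlop groups. By the study's account FlipFlop mice are not fully B6, since targeting of Cd8a used 129R1 stem cells and some strain 129 sequence persists, while Cd4 was targeted in B6 stem cells. The study assigns the helper lineage to B6 CD4 and FlipFlop CD8 T cells and the cytotoxic lineage to the other two groups. The question put to the 9 genes was whether their transcripts followed the lineage, the surface coreceptor or the strain.

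BCL2 family proteins meet at the outer membrane of mitochondria. BAX and BAK form pores there that release cytochrome c and start the caspase cascade, pro-survival proteins such as BCL2, BCL-XL (from Bcl2l1) and MCL1 hold them in check, and BH3-only proteins such as BIM (from Bcl2l11), PUMA (from Bbc3), NOXA (from Pmaip1) and BID neutralize the pro-survival proteins or activate the pore formers. In T cells BCL2 is known for the upkeep of naive cells under interleukin-7, MCL1 for survival at all stages, and BIM for the removal of self-reactive thymocytes and of effector cells after a response.

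Values are CPM, read counts relative to library size, scaled by TMM, a factor for the composition of each library. Differences are of log2(CPM + 0.5), given with their standard error (SE), and a gene was called when its p-value by limma, adjusted over the 11595 genes, was under 0.05. The lineage effect is the mean of both helper-lineage groups minus that of both cytotoxic-lineage groups, the coreceptor effect is CD4 minus CD8 over both strains, and the strain effect is FlipFlop minus B6 over both coreceptors. Strain and age cannot be told apart in the labels, and nothing in the sources says whether replicates came from separate mice, so that p-values measure the spread between these libraries.

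The libraries held an estimated 26600000 to 33100000 reads on the listed genes, from the steps between low values, and 3 reads corresponded to an estimated 0.0857 to 0.1201 CPM, which covers counting error only. T cell markers (6 of 6 in the table, among them Cd3d, Cd3e and Cd3g) summed to between 3335 and 4774 CPM in every library. Zbtb7b, which encodes the helper-lineage factor ThPOK, was at 162 to 203 CPM in the helper-lineage libraries and at 1.16 to 2.79 CPM in the cytotoxic-lineage libraries. B cell markers (7 of 7, Ms4a1 included) summed to between 605 and 786 CPM with overlapping ranges in all groups. Dividing out the TMM factor moved the median difference of all genes by 0.12 in the lineage effect, 0.11 in the strain effect, -0.17 between FlipFlop CD4 and FlipFlop CD8 and 0.16 between FlipFlop CD8 and B6 CD4. The share of higher genes among those called then went from 50.6% to 75.5% in the lineage effect, from 50.5% to 81.0% in the strain effect and from 31.1% to 16.3% in the coreceptor effect. Between groups it went from 57.3% to 69.5% for B6 CD4 against B6 CD8, from 49.0% to 21.0% for FlipFlop CD4 against FlipFlop CD8 and from 47.8% to 83.8% for FlipFlop CD8 against B6 CD4.

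Positions are those of GENCODE M21 on GRCm38 (mm10). Bcl2l1 (ENSMUSG00000007659.18) lies on the reverse strand at chr2:152780668-152831728 and Bcl2l11 (ENSMUSG00000027381.16) on the forward strand at chr2:128126038-128162547. Bid (ENSMUSG00000004446.12) lies on the reverse strand at chr6:120891930-120916853, on the chromosome of both coreceptor loci, 3.95 Mb from Cd4 and 49.5 Mb from Cd8a. Windows of 250 bases upstream of RefSeq transcript starts (GRCm38.p6) were searched on both strands for 4 sets of letters, with overlapping matches allowed: TGTGGT (core Runx motif), GTAAACA (Forkhead motif), TTCNNNGAA (STAT motif) and GGGCGG (GC box). The 3 windows below are shown because Bcl2l1 and Bid had the largest differences between lineages, in opposite directions, and Bcl2l11 had a match to the Forkhead letters. Capitals mark 2 GC boxes in Bid and the Forkhead match in Bcl2l11, whose 3 GC boxes are left in lower case, and Bcl2l1 has no capitals because none of the letters matched. Their positions are chr2:152831729-152831978 on the reverse strand, chr2:128125788-128126037 on the forward strand and chr6:120916854-120917074 on the reverse strand, the last without 29 bases that lie inside the annotated gene.
Bcl2l1: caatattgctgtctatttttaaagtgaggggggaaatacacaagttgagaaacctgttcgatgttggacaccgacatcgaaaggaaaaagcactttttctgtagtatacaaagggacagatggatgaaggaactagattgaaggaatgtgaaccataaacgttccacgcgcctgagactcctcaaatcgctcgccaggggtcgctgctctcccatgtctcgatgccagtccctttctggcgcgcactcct
Bcl2l11: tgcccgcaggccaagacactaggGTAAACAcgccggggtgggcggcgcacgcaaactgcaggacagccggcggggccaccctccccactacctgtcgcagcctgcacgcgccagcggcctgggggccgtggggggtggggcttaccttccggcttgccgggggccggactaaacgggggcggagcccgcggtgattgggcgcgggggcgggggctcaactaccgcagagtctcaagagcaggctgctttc
Bid: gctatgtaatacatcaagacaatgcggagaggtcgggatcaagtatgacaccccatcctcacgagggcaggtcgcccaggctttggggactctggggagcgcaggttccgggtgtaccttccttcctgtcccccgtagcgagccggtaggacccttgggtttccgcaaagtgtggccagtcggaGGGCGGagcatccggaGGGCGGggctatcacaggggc

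Of 32851 such windows in the genome, 14.0% held the Runx letters, 3.17% the Forkhead letters, 7.02% the STAT letters and 32.7% a GC box. None of the 3 windows of Bcl2l1 matched any of the letters. The single window of Bcl2 held 7 GC boxes, that of Mcl1 1, that of Bax 2 and the whole 250 bases for Bid 3. The windows of Bcl2l11 held 3 and 2. Bbc3 had 5, 1 and 7 GC boxes in its 3 windows and 1 match to the Forkhead letters in the second of them. Bak1 had the only match to the Runx letters among these windows, and none matched the STAT letters. The windows of Bbc3 and Bak1, windows 1 and 2 of Bcl2l1 and window 2 of Bcl2l11 lie inside the annotated gene. Pmaip1 was not searched. Such matches describe the letters of these windows and no binding was measured.

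Per kilobase of annotated exon, Mcl1 was the most abundant of the 9 transcripts in every group, with 117 to 145 CPM per kb. Bax (27.7 to 35.0) and Bak1 (24.8 to 28.7 CPM per kb) followed, then Bcl2 (11.8 in FlipFlop CD8 and highest in B6 CD8 T cells). Bcl2l11 was at 8.66 to 9.93, Bbc3 at 4.85 to 10.0, Bid at 4.87 to 8.62, Bcl2l1 at 4.10 to 8.81 and Pmaip1 at 1.03 to 2.25 CPM per kb. Both effector transcripts were thus above all BH3-only transcripts per kb in each group. With the longest transcript as the length in place of all exons, Bax rose to between 39.7 and 50.1 CPM per kb and Mcl1 stayed above it. The order below Bak1 depended on this choice, since in FlipFlop CD8 T cells Bcl2l1 (15.7) and Bcl2l11 (15.2) then exceeded Bcl2 (14.99 CPM per kb).

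The lineage effect called 4 of the 9 genes, against 39.3% of all genes tested. Bcl2l1 and Mcl1 were higher and Bid and Bcl2 were lower in the helper lineage. The median difference of the 9 genes was -0.12 and that of all genes -0.03. None of the 9 passed the stricter rule of an unadjusted p under 0.0001 with more than 5-fold change, which 1.61% of all genes passed in the lineage effect.

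**Figure D1:**
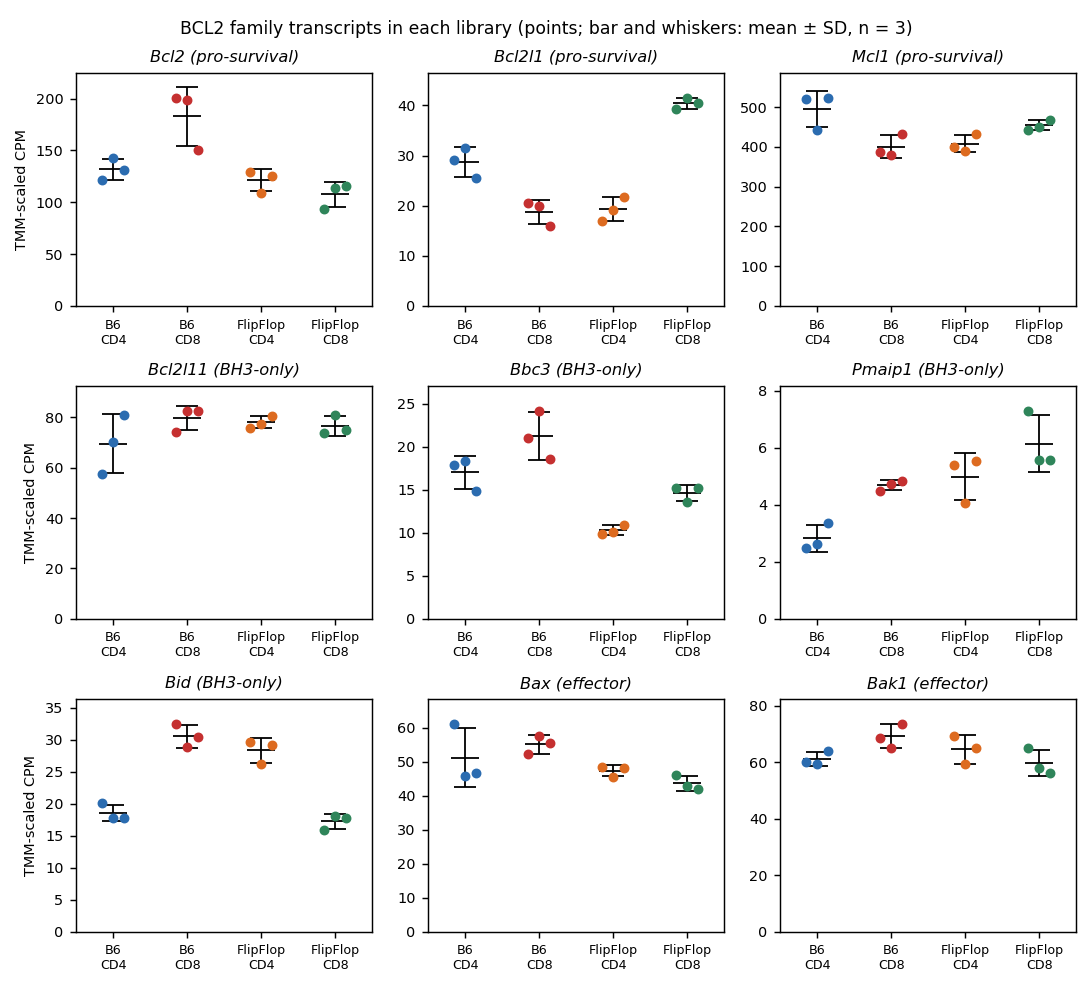
Level of each of the 9 transcripts in the 12 libraries, in TMM-scaled CPM on an axis from 0 (points: libraries; bar and whiskers: mean ± SD, n = 3 per group). Bid was at 26.2 CPM or more in the 6 cytotoxic-lineage libraries and at 20.1 CPM or less in the 6 helper-lineage libraries, and Bcl2l1 ran the other way.

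Among the pro-survival genes, Bcl2l1 was higher in the helper lineage in both strains. In B6 CD4 T cells it was at 29.2, 31.5 and 25.6 CPM and in B6 CD8 T cells at 20.5, 19.9 and 16.002 CPM. In FlipFlop CD4 T cells it was at 17.0, 19.2 and 21.8 CPM and in FlipFlop CD8 T cells at 39.3, 41.4 and 40.4 CPM. All 6 helper-lineage libraries lay above all 6 cytotoxic-lineage libraries, and the FlipFlop CD8 libraries were above every other library. The lineage effect was 0.83 (SE 0.08), a 1.77-fold difference on the log2(CPM + 0.5) scale (adjusted p = 4.56e-06 by limma). Bcl2l1 was 1.40-fold higher in FlipFlop CD8 than in B6 CD4 T cells (0.49, SE 0.11, adjusted p = 0.0105 by limma), whereas FlipFlop CD4 and B6 CD8 T cells differed by 0.04 (95% interval -0.21 to 0.29).

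Markers of regulatory T cells moved with Bcl2l1. All 6 markers (Foxp3, Il2ra, Ikzf2, Ctla4, Tnfrsf18 and Il10) were in the table, and their sum was 344 to 408 CPM in B6 CD4, 59.5 to 66.8 in B6 CD8, 63.5 to 67.2 in FlipFlop CD4 and 809 to 967 in FlipFlop CD8 T cells. Foxp3 was not at 0 in any library but at 0.530 to 2.30 CPM in the cytotoxic-lineage ones. The part of these cells in the level of Bcl2l1 was not tested. In bulk RNA, a different share of a cell type and a different amount of transcript per cell cannot be told apart.

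Mcl1 was higher in the helper lineage by a smaller margin. It was at 519, 442 and 523 CPM in B6 CD4, at 388, 379 and 434 CPM in B6 CD8, at 401, 391 and 433 CPM in FlipFlop CD4 and at 443, 451 and 469 CPM in FlipFlop CD8 T cells. The 6 helper-lineage libraries did not overlap with the 6 cytotoxic-lineage libraries, and the gap between the lowest of the former and the highest of the latter was within the range of B6 CD4 replicates. The lineage effect was 0.23 (SE 0.06, adjusted p = 0.00744 by limma). Within strains the difference was 0.30 (adjusted p = 0.0162 by limma) in B6, and in FlipFlop mice it was -0.16, CD4 minus CD8, with an interval of -0.33 to 0.02. The B6 call was lost without B6 CD4 replicate 3, B6 CD8 replicate 1 or B6 CD8 replicate 2 (adjusted p = 0.0571 to 0.0762 by limma) and in a fit of the B6 libraries alone (adjusted p = 0.0682 by limma). Without the TMM factor the FlipFlop difference was -0.33 and was called (adjusted p = 0.00942 by limma).

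Bcl2 was highest in B6 CD8 T cells. It was at 121, 142 and 131 CPM in B6 CD4, at 200.4, 199 and 150.3 CPM in B6 CD8, at 129, 109 and 126 CPM in FlipFlop CD4 and at 93.9, 114 and 116 CPM in FlipFlop CD8 T cells. Every B6 CD8 library was above every other library, and the other 3 groups overlapped in part. Bcl2 was thus lower in FlipFlop than in B6 mice (strain effect -0.44, SE 0.09, adjusted p = 0.00365 by limma), and lower in FlipFlop CD4 T cells than in their B6 CD8 counterparts (-0.58, SE 0.12, adjusted p = 0.0115 by limma). In helper-lineage cells the strains differed by -0.29 (interval -0.56 to -0.02, adjusted p = 0.0925 by limma), which was not called. The lineage effect was -0.32 (SE 0.09, adjusted p = 0.011 by limma) and missed the threshold without the TMM factor (-0.20, adjusted p = 0.139). CD4 minus CD8 was -0.47 (SE 0.12, adjusted p = 0.0137 by limma) in B6 mice, and in FlipFlop mice it was 0.17 (interval -0.10 to 0.44).

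The Bcl2 calls between single groups depended on individual libraries. The B6 difference was not called without B6 CD8 replicate 1 (adjusted p = 0.0607 by limma), without B6 CD8 replicate 2 (adjusted p = 0.0655 by limma) or without the TMM factor (adjusted p = 0.0585 by limma). The difference between the cytotoxic-lineage groups was not called without B6 CD8 replicate 2 (adjusted p = 0.0615 by limma) or FlipFlop CD4 replicate 2 (adjusted p = 0.057 by limma). Naive T cell markers (6 of 6) summed to between 5316 and 5410 CPM in B6 CD8 and to between 4071 and 4289 CPM in FlipFlop CD8 T cells, the groups with the highest and the lowest mean of Bcl2. They were at 5039 to 5228 CPM in B6 CD4 and 5065 to 5603 CPM in FlipFlop CD4 T cells, and their part in the level of Bcl2 was not tested.

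Among the BH3-only genes, Bid had the most even pattern. It encodes a protein that caspase-8 cleaves downstream of death receptors, which links these receptors to mitochondria. Bid was at 20.1, 17.9 and 17.9 CPM in B6 CD4, at 32.5, 28.9 and 30.4 CPM in B6 CD8, at 29.7, 26.2 and 29.3 CPM in FlipFlop CD4 and at 15.9, 18.1 and 17.8 CPM in FlipFlop CD8 T cells. The helper-lineage libraries reached at most 20.1 CPM and the cytotoxic-lineage libraries were at 26.2 CPM or more. The lineage effect was -0.70 (SE 0.06, adjusted p = 1.33e-06 by limma), a 1.63-fold lower level in the helper lineage. CD4 minus CD8 was -0.70 (SE 0.09) in B6 and 0.70 (SE 0.09) in FlipFlop mice, and the coreceptor effect was 0.00 (interval -0.13 to 0.13). Within a lineage the strains differed by -0.11 (interval -0.29 to 0.08) in cytotoxic-lineage and by -0.10 (interval -0.29 to 0.08) in helper-lineage cells.

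Exons of Bid overlap by 628 bases with those of Bcl2l13, a family member on the opposite strand whose lineage effect was -0.24 (adjusted p = 0.021 by limma). Whether reads were counted by strand is not given in the sources used here, so reads of the shared bases cannot be assigned to one of these genes. Markers of NK cells, which cytotoxic T cells also express in part, moved with Bid. Of 5 markers 4 were in the table, and their sum was 11.5 to 24.9 CPM in B6 CD4, 473 to 515 in B6 CD8, 297 to 300.0 in FlipFlop CD4 and 22.8 to 82.0 in FlipFlop CD8 T cells. Ncr1, a defining NK cell marker, was not in the table, whose own filter is not given. The part of NK cells in the level of Bid was not tested.

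Bcl2l11 was not called in any of the 7 comparisons. It was at 57.5, 70.4 and 80.8 CPM in B6 CD4, at 74.3, 82.5 and 82.4 CPM in B6 CD8, at 75.9, 77.6 and 80.7 CPM in FlipFlop CD4 and at 73.7, 81.0 and 74.8 CPM in FlipFlop CD8 T cells. All groups overlapped, and the B6 CD4 replicates were the most spread. The lineage effect was -0.12 with an interval of -0.28 to 0.04, and the strain effect was 0.06 with an interval of -0.10 to 0.22. Without B6 CD4 replicate 3, its highest value in that group, 3 differences were called: -0.18 for the lineage effect (adjusted p = 0.0427 by limma), -0.32 for B6 CD4 against B6 CD8 (adjusted p = 0.0241 by limma) and 0.26 for FlipFlop CD8 against B6 CD4 (adjusted p = 0.048 by limma). Without B6 CD4 replicate 1, the lowest Bcl2l11 value, the lineage effect was -0.05 (adjusted p = 0.421 by limma), and without the TMM factor it was 0.0026, with the sign changed.

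The strain effect called 5 of the 9 genes (Bcl2, Bbc3 and Bax lower and Bcl2l1 and Pmaip1 higher in FlipFlop mice), against 31.2% of all genes tested. Red blood cell markers (4 of 5 in the table) moved with strain, at 15.9 to 28.8 CPM in the B6 and 6.67 to 14.2 CPM in the FlipFlop libraries, and their part in the strain effects was not tested. Bbc3, a target of p53 and of FOXO factors, was lower in FlipFlop mice. It was at 17.9, 18.3 and 14.8 CPM in B6 CD4, at 21.0, 24.1 and 18.6 CPM in B6 CD8, at 9.88, 10.1 and 10.9 CPM in FlipFlop CD4 and at 15.1, 13.5 and 15.2 CPM in FlipFlop CD8 T cells. FlipFlop CD4 T cells had the lowest level with no overlap, and FlipFlop CD8 and B6 CD4 T cells overlapped. The strain effect was -0.61 (SE 0.08, adjusted p = 0.000257 by limma) and the coreceptor effect -0.40 (SE 0.08, adjusted p = 0.0114 by limma). Within the cytotoxic lineage, Bbc3 was lower in FlipFlop CD4 T cells (-1.003, a 2.0-fold difference, SE 0.11, adjusted p = 0.000114 by limma), and within the helper lineage the strains differed by -0.21 (interval -0.45 to 0.03).

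Between CD4 and CD8 T cells, Bbc3 was lower in CD4 T cells in FlipFlop mice (-0.48, SE 0.11, adjusted p = 0.00524 by limma). In B6 mice the difference was -0.31 (adjusted p = 0.0598 by limma). It was called with the replicate number within strain as a block (adjusted p = 0.0142 by limma) and without B6 CD8 replicate 3 (-0.40, adjusted p = 0.0299 by limma). The lineage effect of Bbc3 was 0.09 (interval -0.08 to 0.26).

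Pmaip1 (ENSMUSG00000024521.8, chr18:66458533-66465565) encodes NOXA, which binds mainly MCL1, and had the lowest level of the 9 genes. In B6 CD4 T cells it was at 2.48, 2.61 and 3.37 CPM, in B6 CD8 at 4.49, 4.72 and 4.84 CPM, in FlipFlop CD4 at 5.38, 4.06 and 5.54 CPM and in FlipFlop CD8 T cells at 7.30, 5.59 and 5.57 CPM. The lowest of these values corresponded to an estimated 66 reads. B6 CD4 T cells were below and FlipFlop CD8 T cells above all other libraries, and the remaining groups overlapped. Among helper-lineage cells, Pmaip1 was 2.0-fold higher in FlipFlop CD8 T cells (1.002, SE 0.15, adjusted p = 0.000726 by limma), with a difference of 0.07 between the cytotoxic-lineage groups (interval -0.25 to 0.40). The strain effect was 0.54 (SE 0.11, adjusted p = 0.00351 by limma).

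CD4 minus CD8 was -0.65 for Pmaip1 in B6 (SE 0.15, adjusted p = 0.00617 by limma) and -0.28 in FlipFlop mice (interval -0.60 to 0.05). The coreceptor effect was -0.46 (SE 0.11, adjusted p = 0.0248 by limma). That call was lost without any 1 of 5 libraries, B6 CD4 replicate 2, B6 CD8 replicates 2 and 3, FlipFlop CD4 replicate 2 and FlipFlop CD8 replicate 1 (adjusted p = 0.0519 to 0.064 by limma), and without eBayes moderation (adjusted p = 0.0581). Without the TMM factor the FlipFlop difference was -0.44 and was called (adjusted p = 0.0363 by limma).

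The coreceptor effect called 2 of the 9 genes, Bbc3 and Pmaip1, both lower in CD4 T cells, against 5.49% of all genes. The sum of memory or effector T cell markers (7 of 7 in the table) was also higher in CD8 T cells of each strain. It was 369 to 466 CPM in B6 CD4, 843 to 932 in B6 CD8, 499 to 579 in FlipFlop CD4 and 796 to 1169 CPM in FlipFlop CD8 T cells. Il2rb, 1 of the 7, alone averaged 284, 565, 348 and 601 CPM in these groups, and the other markers were not compared singly. The part of memory or effector cells in the levels of Bbc3 and Pmaip1 was not tested. The coreceptor effect of Bcl2l1 was -0.22 (adjusted p = 0.159 by limma) and was called with the replicate number within strain as a block (adjusted p = 0.0462 by limma).

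Bax was at 61.1, 45.8 and 46.7 CPM in B6 CD4, at 52.2, 57.5 and 55.6 CPM in B6 CD8, at 48.4, 45.5 and 48.1 CPM in FlipFlop CD4 and at 46.2, 42.7 and 42.1 CPM in FlipFlop CD8 T cells. B6 CD4 replicate 1 was above every other library, and B6 CD4 overlapped with each other group. The strain effect was -0.22 (SE 0.07, adjusted p = 0.0362 by limma). It was not called without the TMM factor (-0.10, adjusted p = 0.205 by limma), without eBayes moderation (adjusted p = 0.0643) or without any 1 of 6 libraries, replicates 2 and 3 of each group but B6 CD4 (adjusted p = 0.0617 to 0.083 by limma). The lineage effect of Bax was -0.12 (interval -0.27 to 0.04) and, without B6 CD4 replicate 1, -0.18 (adjusted p = 0.00509 by limma). It was -0.08 without B6 CD4 replicate 2 (adjusted p = 0.425 by limma) and 0.0047, with the sign changed, without the TMM factor. Without B6 CD4 replicate 1 Bax was also called for B6 CD4 against B6 CD8 (-0.25, adjusted p = 0.014 by limma) and for FlipFlop CD4 against B6 CD8 (adjusted p = 0.0319 by limma).

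Bak1 was at 59.9, 59.5 and 64.0 CPM in B6 CD4, at 68.6, 65.2 and 73.5 CPM in B6 CD8, at 69.3, 59.3 and 64.8 CPM in FlipFlop CD4 and at 64.9, 57.8 and 56.1 CPM in FlipFlop CD8 T cells. B6 CD8 T cells were above B6 CD4 T cells and overlapped with FlipFlop CD4 T cells. Bak1 was called in none of the 7 comparisons, and its lineage effect was -0.14 (SE 0.06, adjusted p = 0.063 by limma). With the replicate number as a block the lineage effect was called, within strain (adjusted p = 0.0211 by limma) and across strains (adjusted p = 0.0415 by limma). It was also called without FlipFlop CD4 replicate 2 (adjusted p = 0.037 by limma) or FlipFlop CD8 replicate 1 (adjusted p = 0.0305 by limma). Exons of Bak1 overlap by 437 bases with those of Ggnbp1 on the opposite strand, and those of Bax by 192 bases with a gene on the same strand, Gm45808, which was not in the table. Exons of Bcl2 overlap by 558 bases with those of D630008O14Rik, an antisense gene that was also not in the table.

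The strain effect of Bcl2l1 was 0.26 (SE 0.08, adjusted p = 0.0293 by limma). This call was lost without eBayes moderation (adjusted p = 0.0573) and without any 1 of 6 libraries, B6 CD4 replicate 3, B6 CD8 replicate 3, and replicates 2 and 3 of both FlipFlop groups (adjusted p = 0.0526 to 0.0707 by limma). Mcl1 had a strain effect of -0.04 (interval -0.17 to 0.08), Bid of -0.10 (interval -0.24 to 0.03) and Bak1 of -0.07 (interval -0.19 to 0.05).

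**Figure D2:**
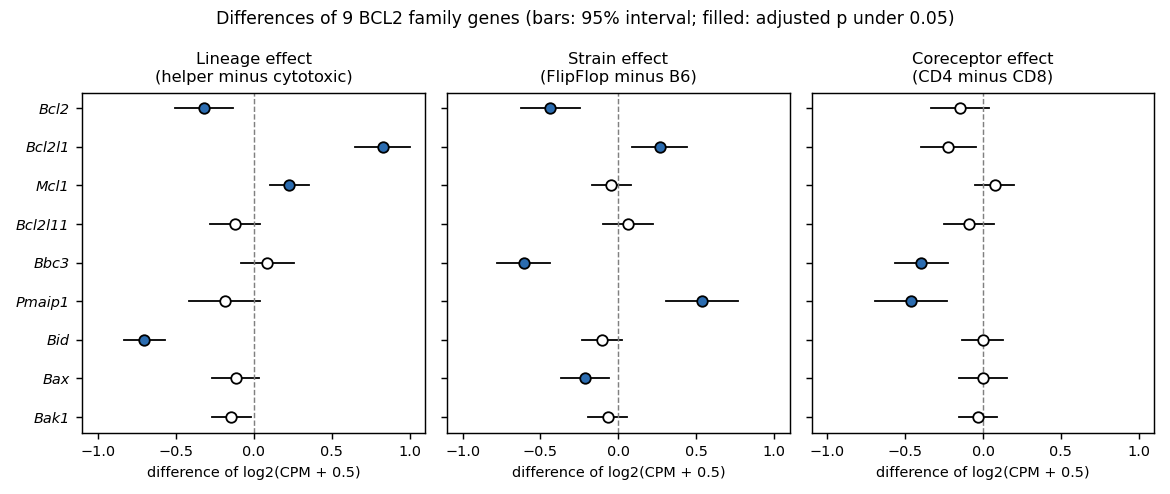
Lineage, strain and coreceptor effects of the 9 genes as differences of log2(CPM + 0.5) with 95% intervals from limma (filled: adjusted p under 0.05; 12 libraries). Bcl2l1 (0.83) and Bid (-0.70) had the largest lineage effects, Bbc3 (-0.61) and Pmaip1 (0.54) the largest strain effects, and 2 genes a called coreceptor effect.

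In B6 mice 5 of the 9 genes were called between the coreceptor subsets, against 25.4% of all genes tested. Bcl2l1 and Mcl1 were higher and Bcl2, Pmaip1 and Bid lower in B6 CD4 T cells. In FlipFlop mice 3 were called, against 31.3% of all genes, with Bid higher and Bcl2l1 and Bbc3 lower in FlipFlop CD4 T cells. Thus Bid and Bcl2l1 were called in both strains with opposite signs. Bcl2l1 differed by 0.60 (SE 0.11) in B6 and by -1.05 (SE 0.11) in FlipFlop mice, and the difference was tested by the lineage effect, which equals the interaction of strain and coreceptor.

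**Figure D3:**
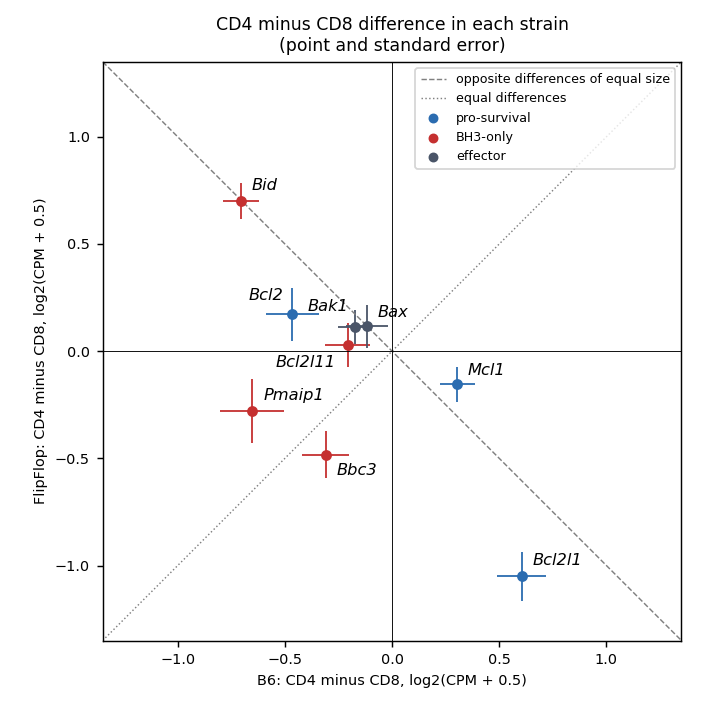
CD4 minus CD8 difference of each gene in B6 (x axis) and FlipFlop mice (y axis), in log2(CPM + 0.5) with standard errors from limma. Bid (-0.70 and 0.70) and Bax (-0.12 and 0.12) lie on the line of equal and opposite differences, but neither Bax difference was called. Bcl2l1 (0.60 and -1.05) had opposite signs of unequal size. Bbc3 (-0.31 and -0.48) and Pmaip1 (-0.65 and -0.28) had the same sign in both strains. Bbc3 was called only in FlipFlop and Pmaip1 only in B6 mice.

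In the cytotoxic lineage (FlipFlop CD4 against B6 CD8) 2 of 9 were called, Bcl2 and Bbc3, both lower in FlipFlop CD4 T cells, against 7.92% of all genes. In the helper lineage (FlipFlop CD8 against B6 CD4) 2 of 9 were called, Bcl2l1 and Pmaip1, both higher in FlipFlop CD8 T cells, against 27.6% of all genes. Both comparisons share libraries with those between CD4 and CD8 T cells.

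Ratios of a survival to a death transcript were formed for 4 pairs of genes, chosen with their values known. The ratio of Bcl2l1 to Bid was 1.43 to 1.77 in B6 CD4, 0.527 to 0.688 in B6 CD8, 0.573 to 0.746 in FlipFlop CD4 and 2.27 to 2.47 in FlipFlop CD8 T cells. Each of these genes alone separated the lineages, in opposite directions, so the separation by their ratio follows from the choice of the pair. The ratio of Bcl2 to Bcl2l11 was 1.62 to 2.11 in B6 CD4, 1.82 to 2.70 in B6 CD8, 1.40 to 1.70 in FlipFlop CD4 and 1.27 to 1.54 in FlipFlop CD8 T cells. B6 CD8 libraries overlapped with B6 CD4 but with neither FlipFlop group, and both FlipFlop groups overlapped with each other. The other two ratios did not separate the lineages. Mcl1 to Pmaip1 was 155 to 209 in B6 CD4, 80.3 to 89.6 in B6 CD8, 74.4 to 96.3 in FlipFlop CD4 and 60.8 to 84.1 in FlipFlop CD8 T cells, with B6 CD4 above the rest. Bcl2 to Bbc3 was 6.78 to 8.84 in B6 CD4, 8.09 to 9.52 in B6 CD8, 10.8 to 13.1 in FlipFlop CD4 and 6.20 to 8.41 in FlipFlop CD8 T cells, with FlipFlop CD4 above the rest. These ratios are of CPM that are not divided by length, so they compare libraries and not genes.

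**Figure D4:**
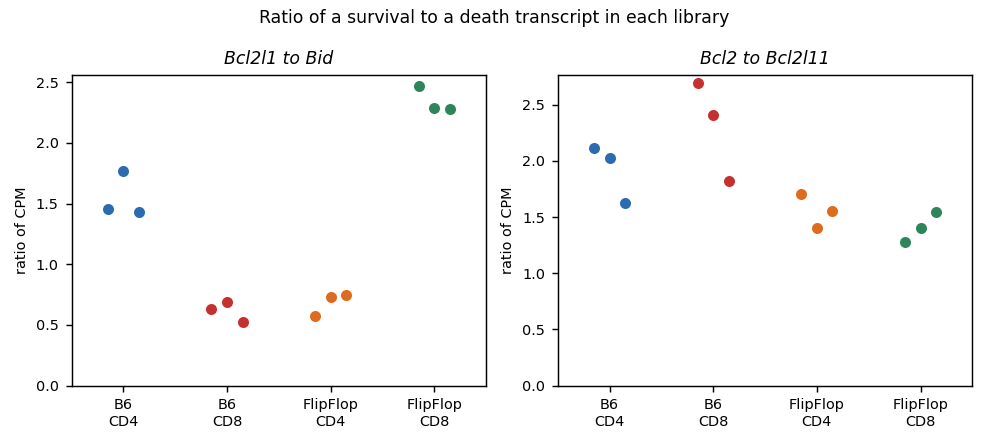
Ratio of Bcl2l1 to Bid and of Bcl2 to Bcl2l11 in each library, in CPM over CPM on axes from 0 (points: 3 libraries per group). For Bcl2l1 to Bid the cytotoxic-lineage libraries were at 0.746 or less and the helper-lineage libraries at 1.43 or more.

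Across the 12 libraries, Bid and Bcl2l1 ran in opposite directions (Pearson's r = -0.89 of log2(CPM + 0.5), n = 12 libraries, which share the 4 groups). Bcl2l1 and Bak1 had r = -0.73, Mcl1 and Bid -0.70, Bcl2 and Bbc3 0.67 and Bid and Bak1 also 0.67. The genes most like Bid were Mta3 (r = 0.98), Emilin1 (0.98) and Lcn4 (0.98), and those most like Bcl2l1 were Acvr1 (0.99), Kdelc2 (0.99) and Gdpd5 (0.98). For Bcl2 the closest gene was Pabpc4 (r = 0.93), for Mcl1 Slfn1 (0.94), for Bcl2l11 Rsbn1l (0.97), for Bbc3 Drc1 (0.92), for Pmaip1 Abcb1a (0.94), for Bax Snrpb (0.96) and for Bak1 Idh3a (0.89). Acvr1, the closest to Bcl2l1, averaged only 0.595 CPM.

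Of 16 other BCL2 family genes, 11 were tested, and in the lineage effect 5 were higher and 1 lower in the helper lineage (6 of 11, against 39.3% of all genes), with a median of 0.08 against -0.03 over all genes. Bcl2a1d and Bcl2a1b, which encode pro-survival A1 proteins, were at 10.3 to 11.7 and 29.7 to 38.0 CPM in B6 CD4, at 1.95 to 3.25 and 13.4 to 16.5 CPM in B6 CD8, at 1.88 to 3.35 and 17.1 to 20.6 CPM in FlipFlop CD4 and at 14.9 to 19.2 and 39.9 to 53.4 CPM in FlipFlop CD8 T cells. Neither gene's libraries overlapped between lineages. The sum of regulatory T cell markers, given with Bcl2l1, was also higher in the helper lineage and highest in FlipFlop CD8 T cells. The part of these cells in the levels of Bcl2a1d and Bcl2a1b was not tested. The lineage effect was 2.19 (SE 0.13) for Bcl2a1d (adjusted p = 5.73e-08 by limma) and 1.21 (SE 0.09) for Bcl2a1b (adjusted p = 3.58e-07 by limma). They are near-identical copies on chromosome 9 that can share reads, so the split between them is uncertain. Bcl2l2, which encodes pro-survival BCL-W, had a lineage effect of 0.64 (adjusted p = 0.00107 by limma), with a B6 difference of -0.04 and a FlipFlop difference of -1.31, and Bcl2l14 one of 0.59 (adjusted p = 0.00436 by limma). For Bcl2l14 the B6 difference was 0.70, and the FlipFlop difference was -0.49 and was not called (adjusted p = 0.08 by limma). The strain effect was called for 2 of 11 (against 31.2% of all genes), Bcl2a1b (0.37) and Bik (0.66, adjusted p = 0.0255 by limma), and the Bik call was lost without any 1 of B6 CD8 replicates 2 and 3, FlipFlop CD4 replicates 1 and 2 and FlipFlop CD8 replicates 1 and 2 (adjusted p = 0.0507 to 0.0619 by limma).

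Downstream of mitochondria, 16 of 16 apoptosome and caspase genes were tested, and 5 were higher and 3 lower in the helper lineage (8 of 16, against 39.3% of all genes, median 0.07). Over the alternative fits, 4 to 8 were higher and 0 to 4 lower. Birc3, an inhibitor of apoptosis, had a lineage effect of 0.35 (adjusted p = 0.000482 by limma) and Casp6, a caspase, one of 0.18 (adjusted p = 0.0135 by limma). CD4 minus CD8 of Casp6 was 0.30 in B6 mice, and in FlipFlop mice it was -0.06 and was not called (adjusted p = 0.58 by limma). In the strain effect 2 of the 16 genes were higher and 5 lower (7 of 16, against 31.2% of all genes), among them Cycs (-0.46), which encodes cytochrome c, and Endog (-0.40) and Dffb (-0.26), which encode nucleases. Over the alternative fits, 1 to 7 were higher and 3 to 5 lower, so this split depended on the processing.

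Of the 10 death receptor genes, all tested, 4 were higher and 2 lower in the helper lineage (6 of 10, against 39.3% of all genes, median 0.06). Fasl, the ligand of Fas, had a lineage effect of 2.25 (SE 0.12, adjusted p = 1.62e-08 by limma), with 7.10 to 8.36 CPM in B6 CD4, 1.54 to 2.20 in B6 CD8, 0.797 to 1.083 in FlipFlop CD4 and 6.92 to 10.6 CPM in FlipFlop CD8 T cells. Tnfrsf25 rose in the helper lineage by 1.34 (adjusted p = 1.82e-07 by limma) and Tnfrsf1a by 0.34 (adjusted p = 0.00446 by limma), and Tnfrsf10b, a receptor for TRAIL, fell by 0.49 (adjusted p = 0.00246 by limma). Within FlipFlop mice, CD4 minus CD8 was not called for Tnfrsf1a (-0.17, adjusted p = 0.307 by limma) or Tnfrsf10b (0.27, adjusted p = 0.206 by limma). Both were called within B6 mice (0.52 and -0.72). Tnfrsf25 was the only one of the 10 with a called strain effect, against 31.2% of all genes (0.31, adjusted p = 0.0254 by limma), and that call was lost without B6 CD8 replicate 2, FlipFlop CD4 replicate 2 or FlipFlop CD8 replicate 1 or 2 (adjusted p = 0.0527 to 0.0618 by limma).

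Among 22 regulators of the family, all tested, 5 were higher and 2 lower in the helper lineage (7 of 22, against 39.3% of all genes, median -0.003). Il2ra, the alpha chain of the interleukin-2 receptor and also 1 of the 6 regulatory T cell markers, had the largest lineage effect (5.38, SE 0.12, adjusted p = 1.68e-11 by limma). Il4ra (0.31), Stat5b (0.33) and Jak1 (-0.33), which carry cytokine signals, were called with smaller differences (adjusted p = 0.000182, 0.000409 and 0.00102 by limma). In the strain effect 6 were higher and 4 lower (10 of 22, against 31.2% of all genes), with Il2ra (0.86), Stat5b (0.25), Trp53 (-0.27) and Il4ra (-0.20) called by the smallest adjusted p (0.00249 to 0.00887 by limma for the last 3, and 0.000513 for Il2ra). Over the alternative fits, 4 to 10 were higher and 1 to 5 lower. The call for Il4ra was lost without the TMM factor (-0.09, adjusted p = 0.271 by limma).

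**Figure D5:**
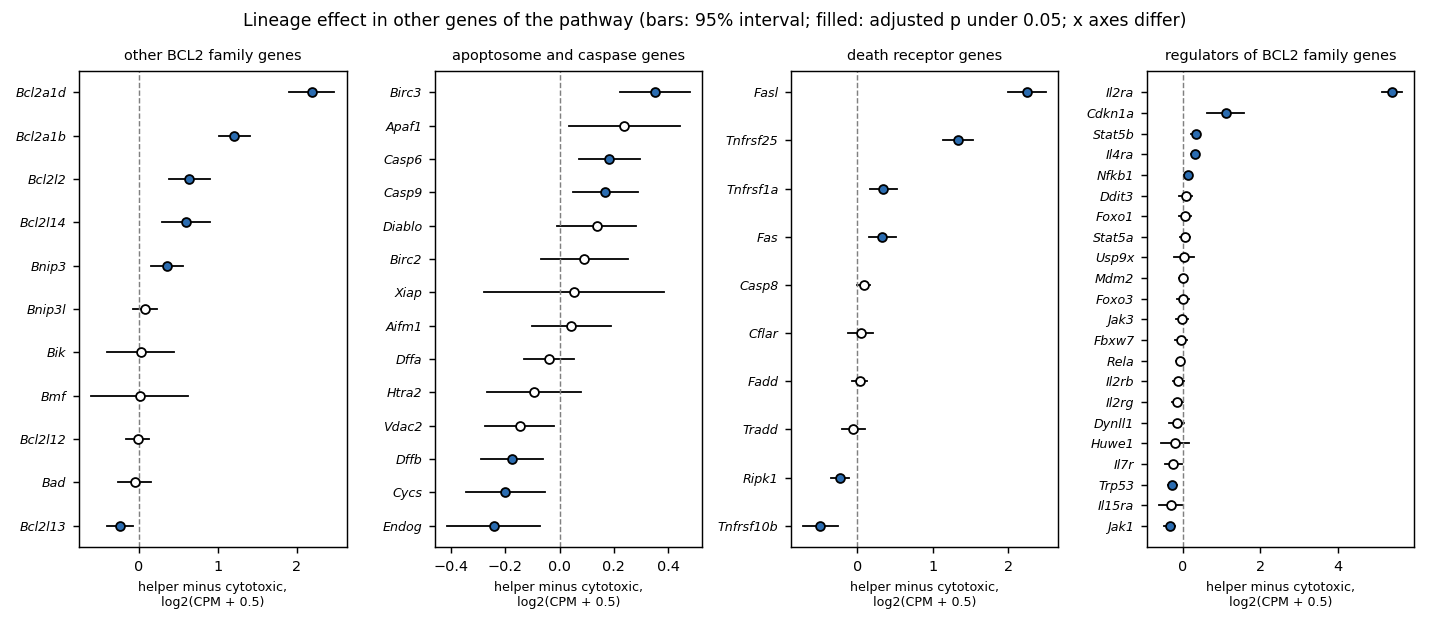
Lineage effect of the tested genes reported from the 4 other lists, as helper minus cytotoxic log2(CPM + 0.5) with 95% intervals from limma (filled: adjusted p under 0.05; the x axes differ). The helper lineage was higher for Bcl2a1d (2.19), Birc3 (0.35), Fasl (2.25) and Il2ra (5.38), the largest value shown in each list.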

How the data were processed

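T cells were isolated from LN by electronic sorting, RNA was prepared with the RNeasy Plus kit, and the authors made libraries with a SMARTer low-input kit and sequenced them as paired-end reads. Their methods name STAR and mm10, while the submitters' processing notes list Trimmomatic and TopHat. The counting program, its strand setting, the annotation and the filter are not given in the sources used here. The authors deposited 1 table of expression signal, CPM scaled by TMM (columns sum to 875501 to 1081793), with 0 columns unused. Depth was estimated from the steps between low values. Whole reads (within 0.02 reads) made up 85.6% to 87.0% of values under 100 CPM, below the 95% required, so no count test was run and read numbers are estimates.

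The filter was 1 CPM or more in 3 or more libraries, which left 11595 genes to test and took out 1214, and log2(CPM + 0.5) was fitted with limma 3.58.1 (lmFit, eBayes with trend) in R 4.3.3, with group means, no block and 8 residual degrees of freedom. All 7 comparisons used Benjamini-Hochberg adjustment over the tested genes, and intervals are 95%. The fit was tested on simulated data. All 12809 identifiers matched GENCODE M21.

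Same-numbered CD4 and CD8 libraries, by the labels' replicate numbers, deviated together from their group means in FlipFlop mice (r = 0.44, 0.27 and 0.51). In B6 mice 1 of the 3 correlations was under 0.1 (0.18, 0.09 and 0.35). Across strains, where libraries cannot share a mouse, B6 CD4 with FlipFlop CD4 had r = 0.15, 0.09 and 0.29. The other same-numbered pairs across strains ran from -0.085 to 0.181. Differently numbered libraries were not compared and no source says what the numbers share, so pairing was not settled. No 2 of the 66 pairs of libraries were identical. The 9 genes and the lists were chosen with earlier results of these data known. Named are all 9 genes, up to 4 called genes per list with the smallest adjusted p in the lineage and in the strain effect, and for each of the 9 the genes with the highest r. Some list genes that the rule names are not reported here, though they count in their list. Alternatives were pseudocounts of 0.1 and 1, other filters, scalings, models and call rules, blocks, and each library left out.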

Additional observations from a re-analysis of the deposited data

Results flagged for a closer look

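In 18 genes, those of the 9 that were called for the lineage effect and list genes reported for it by name, the CD4 minus CD8 difference itself differed between B6 and FlipFlop mice by the interaction test of limma, which is the lineage effect on another scale. The values are the B6 difference minus the FlipFlop difference in log2(CPM + 0.5). Among the 9 genes it was -0.64 for Bcl2, 1.65 for Bcl2l1, 0.46 for Mcl1 and -1.40 for Bid. In the family list it was 4.38 for Bcl2a1d, 2.41 for Bcl2a1b, 1.27 for Bcl2l2 and 1.19 for Bcl2l14. Among apoptosome and caspase genes it was 0.70 for Birc3 and 0.37 for Casp6. Among death receptor genes it was 4.50 for Fasl, 2.68 for Tnfrsf25, -0.98 for Tnfrsf10b and 0.69 for Tnfrsf1a. Among regulators it was 10.8 for Il2ra, 0.62 for Il4ra, 0.67 for Stat5b and -0.67 for Jak1. Among these 18, adjusted p-values by limma ran from 1.68e-11 (Il2ra) to 0.0135 (Casp6).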

How the results depend on the processing

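Of the 23 called differences of the 9 genes, none reversed over 505 alternatives other than call rules, 474 kept the call and 31 lost it. Of the 40 others, 15 of 883 alternatives gained a call and 33 changed sign without being called in either fit. Under the rule of p under 0.0001 and more than 5-fold, the number of the 9 genes called was 0 in all 7 comparisons. At an adjusted p under 0.01 it was 3 for B6 CD4 against B6 CD8, 3 for the strain effect, 0 for the coreceptor effect and 1 for each comparison within a lineage. It was 5 for FlipFlop CD4 against FlipFlop CD8 without the TMM factor, 3 for the strain effect and 1 for the coreceptor effect without eBayes moderation, and 1 for the coreceptor effect and for FlipFlop CD8 against B6 CD4 among genes averaging at least 5 CPM, where Pmaip1 drops out. With 1 library left out it was 4 to 5 for the lineage effect, 3 to 6 for B6 CD4 against B6 CD8, 3 in all fits for FlipFlop CD4 against FlipFlop CD8, 3 to 5 for the strain effect, 1 to 2 for the coreceptor effect, 1 to 3 for FlipFlop CD4 against B6 CD8 and 2 to 3 for FlipFlop CD8 against B6 CD4. A group that loses a library keeps 2. The cause of these shifts was not tested, apart from fewer genes or samples.

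With a replicate block within strain, 3 of the 9 genes remained called for FlipFlop CD4 against FlipFlop CD8, and the calls that changed were the lineage effect of Bak1 (adjusted p = 0.0211 by limma), the B6 difference of Bbc3 (adjusted p = 0.0142 by limma) and the coreceptor effect of Bcl2l1 (adjusted p = 0.0462 by limma). The block across strains changed, among the 9 genes, only Bak1 (adjusted p = 0.0415 by limma). For the other lists, the same alternatives were added after the data were seen. Lineage calls ran from 4 to 6 (family), 5 to 10 (apoptosome and caspase), 4 to 7 (death receptor) and 6 to 11 (regulators). In the same order, the higher ones were 3 to 6, 4 to 8, 3 to 6 and 4 to 8. The lower ones were 0 to 1, 0 to 4, 1 to 2 and 2 to 5. Strain calls ran from 1 to 4, 4 to 10, 0 to 3 and 8 to 12. Of these, 1 to 4, 1 to 7, 0 to 2 and 4 to 10 were higher, and 0, 3 to 5, 0 to 3 and 1 to 5 lower. Pmaip1, at an estimated 66 reads in 1 library, is the least precise of the 9.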

Other observations

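Of the family list, 2 genes fell under the filter on low values. Bcl2a1a was at 0.196 to 0.734 CPM across all libraries. Bcl2l15 was at 0.139 to 0.484 CPM in B6 CD4 and at 0.227 to 0.804 CPM in FlipFlop CD8 T cells and was listed at 0 in all 6 cytotoxic-lineage libraries. Bcl2l10, Bok and Hrk were not in the table, whose own filter is not given. Bmf, a BH3-only gene, had a strain effect of 0.70 that was not called (adjusted p = 0.0742 by limma).

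Il7r, the interleukin-7 receptor, had a strain effect of -0.39 (adjusted p = 0.0126 by limma), the same sign as Bcl2, and Il2rb was higher in CD8 T cells (coreceptor effect -0.89, adjusted p = 1.12e-05 by limma). Both were picked from the regulators after their values were seen, and Il2rb is also 1 of the 7 memory or effector markers. Stat5b, also a regulator, had a strain effect of the other sign (0.25, adjusted p = 0.00656 by limma), and that of Jak1 was not called (0.09). The part of these genes in the level of Bcl2 was not tested.

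Myeloid markers (5 of 7 in the table) summed to 19.5 to 29.4 CPM in B6 CD4, 8.20 to 21.1 in B6 CD8, 6.54 to 8.85 in FlipFlop CD4 and 15.6 to 27.3 CPM in FlipFlop CD8 T cells. FlipFlop CD4 T cells were the lowest and overlapped only with B6 CD8 T cells, and the part of these cells in the lineage and strain effects was not tested.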
